A study of Mus musculus with 27 samples.

Results

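Neutrophils made up 215 of the 43812 cells kept from 4 single-cell libraries of mouse aorta. The cells were chosen by their own transcripts: a cell was counted as a neutrophil when it held at least 10 unique molecules (UMIs, the tags that count single transcripts) of S100a8 and S100a9 together and at least 1 UMI of Retnlg, Csf3r, Cxcr2 or Il1r2. Only barcodes with at least 500 genes, at least 1000 UMIs and at most 15% mitochondrial UMIs were considered. The study asks about the transcription factor KLF10 and the cytokine IL-9 in scarring around vessels. All mice were C57BL/6 and had been infused for 28 days with angiotensin II (Ang II), which constricts vessels and drives blood pressure up. The single-cell libraries were prepared from digested aorta that had not been stripped, 2 from mice with the genotype label Cre and 2 from mice with the label TKO. Bulk RNA-seq covered 4 further experiments. Non-stripped aorta gave 3 libraries of each genotype, stripped aorta gave 4 Cre and 2 TKO libraries, and fibroblasts isolated from aorta gave 3 of each. In the last experiment TKO aorta came from mice treated with control IgG (3 libraries) or with an antibody to IL-9 (2 libraries). Neither genotype name is spelled out in the labels, so the target gene cannot be checked against them. No age or untreated group is given, nor whether libraries came from separate animals, so the p-values measure only the spread between these samples. The single-cell libraries were sequenced in pairs that are not identified, so sequencing run and genotype cannot be told apart. Both arms of the antibody experiment carry the TKO genotype, so the antibody was compared within TKO only.

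Neutrophils are short-lived white blood cells that leave the bone marrow with their granule proteins already made and enter inflamed tissue. The colony-stimulating factor receptor Csf3r drives their production, and the chemokine receptor Cxcr2 guides them out of the blood. S100a8 and S100a9 pair to form calprotectin, which binds metal ions and makes up much of the neutrophil cytosol. In inflamed tissue these cells can release IL-1beta and chemokines, while most granule genes are read during maturation in the marrow.

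The promoters of the pair that defines these cells are shown because their transcripts were the most abundant of the 6 marker genes. Each sequence is 300 bases from RefSeq on GRCm38.p6, from 250 bases before to 50 bases after the annotated start, on the strand of the gene, with matches to 3 short motifs in capitals. S100a8 lies at chr3:90668821-90669120 on the plus strand and S100a9 at chr3:90695672-90695971 on the minus strand.
S100a8: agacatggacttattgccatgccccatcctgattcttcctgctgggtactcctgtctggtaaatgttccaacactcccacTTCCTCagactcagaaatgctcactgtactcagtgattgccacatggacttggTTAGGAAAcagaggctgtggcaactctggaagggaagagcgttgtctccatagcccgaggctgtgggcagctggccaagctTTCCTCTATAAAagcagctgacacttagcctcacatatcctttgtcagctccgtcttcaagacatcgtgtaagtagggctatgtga
S100a9: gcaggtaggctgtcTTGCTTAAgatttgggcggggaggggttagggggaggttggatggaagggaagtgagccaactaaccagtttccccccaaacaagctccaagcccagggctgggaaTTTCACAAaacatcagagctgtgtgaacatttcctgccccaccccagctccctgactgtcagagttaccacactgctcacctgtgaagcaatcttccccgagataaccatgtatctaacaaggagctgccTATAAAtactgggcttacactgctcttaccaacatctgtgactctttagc
The motifs searched were a C/EBP core (TTNNGNAA, or TTNCNNAA for the opposite strand), a PU.1 core (GAGGAA, or TTCCTC for the opposite strand) and TATAAA on the strand of the gene. C/EBP proteins and PU.1 are the transcription factors best known for driving the granulocyte programme. The S100a8 window held TTCCTC at positions -170 and -36 from the start, TTAGGAAA at -117, and TATAAA at -30, which adjoins the second TTCCTC. The S100a9 window held TTGCTTAA at -236, TTTCACAA at -130 and TATAAA at 0, the annotated start itself. Of the 36 neutrophil genes used here (the 6 genes of the rule and a list of 30 identity genes), 32 had a promoter in the table. A C/EBP core match was present in 15 of the 32 (46.9%) and in 40.7% of all 32851 promoters of the same length. A PU.1 core match was present in 16 of the 32 against 28.3% of all, and TATAAA in 11 of the 32 (34.4%) against 8.32% of all. These matches describe letters, and no binding was measured.

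The 4 libraries gave very different numbers of neutrophils. Cre library 1 held 107, Cre library 2 held 13, TKO library 1 held 66 and TKO library 2 held 29. Their summed UMIs were 308146, 25311, 136629 and 50576, so a gene with 0 UMIs could still reach 9.74, 119, 22 and 59.3 CPM in these libraries, the limit set by 3 UMIs (CPM is UMIs scaled to a total of 1000000 per library). Median UMIs per neutrophil were 2208, 1746, 1712 and 1578, beside 2768, 1683, 1593 and 1409 in all kept cells. Neutrophils of Cre library 2 also had the highest median mitochondrial share, 11.4%, against 7.49%, 6.21% and 8.75% in the others. In that library 2 cells held 78.9% of all S100a8 and S100a9 UMIs, so the values that rest most on it are given with and without it below.

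Of the 215 cells, 45 held 1 of the 4 receptor or secreted markers, 80 held 2, 66 held 3 and 24 held all 4. S100a8 plus S100a9 ranged from 12 to 588 UMIs per cell in Cre library 1, from 10 to 709 in Cre library 2, from 10 to 273 in TKO library 1 and from 14 to 98 in TKO library 2, with medians of 84, 34, 29.5 and 43. Near the threshold lay 10 neutrophils with 10 to 12 such UMIs, 8 of them in TKO library 1, and 12 cells just outside with 7 to 9. A further 22 kept cells had at least 10 but no UMI of the other 4 genes. The leukocyte gene Ptprc was detected in 94 of 107, 6 of 13, 46 of 66 and 21 of 29 neutrophils. Of the 27 identity genes in the single-cell tables that the rule did not name, 20 were higher in neutrophils than in the other kept cells of the same library in all 4 libraries. These comparisons describe how the cells were chosen and were not tested.

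Transcripts of other cell types were present in most of these barcodes, and no doublet caller was run. At least 3 UMIs of fibroblast, smooth muscle, endothelial, macrophage, T cell or B cell markers were found in 155 of the 215 neutrophils. Fibroblast markers reached that level in 32 of 107, 3 of 13, 53 of 66 and 14 of 29 cells, so more often in both TKO libraries. The summed fibroblast markers made up 6283 and 3990 CPM of the neutrophil RNA in the Cre libraries and 12991 and 13465 in the TKO libraries, and all 8 were detected. The other kept cells differed in the same direction, from 9527 and 7045 to 14157 and 13789. The complement genes of macrophages (C1qa, C1qb, C1qc) reached 3 UMIs in 17, 4, 10 and 5 cells. Haemoglobin made up over 5% of the UMIs in 30 neutrophils, or 13.1%, 7.69%, 15.2% and 17.2% of them, against 5.63%, 10.9%, 15.9% and 11.9% of all kept cells. Only 2 neutrophils had a barcode that another library also kept, out of 417 such kept cells.

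The S100a8 and S100a9 pair was the most abundant of the 6 rule genes in every library. S100a9 reached 25196 and 36348 CPM in the Cre libraries and 14221 and 17063 in the TKO libraries, against a mean of 9.53 ± 1.15 (SD, n = 4) in the other kept cells. S100a8 reached 15613, 28683, 8988 and 9649, against 8.55 ± 2.36. Cre library 2 was highest for both, and both TKO libraries lay below both Cre libraries. Retnlg, which encodes a resistin-like secreted protein of granulocytes, had the largest ratio over other cells, 3204-fold, at 1626, 1264, 1405 and 969 CPM. The receptors of the rule were lower and closer together: Csf3r at 815, 474, 454 and 712, the IL-1 decoy receptor Il1r2 at 318, 553, 366 and 435, and Cxcr2 at 432, 198, 234 and 277. For these receptors and Retnlg the Cre and TKO libraries overlapped.

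**Figure D1:**
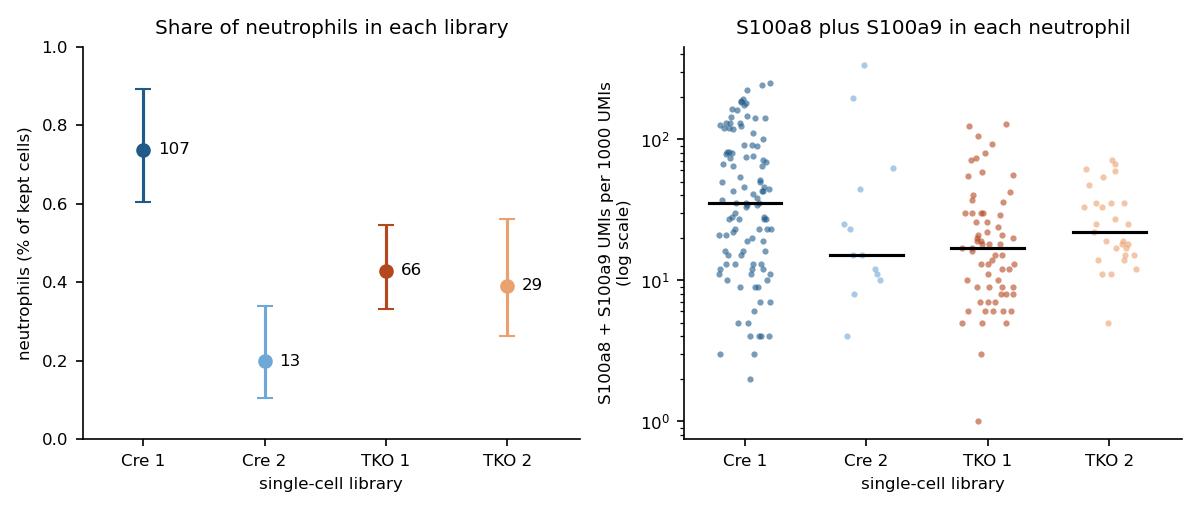
The left panel plots neutrophils as a percentage of kept cells for each single-cell library, with the exact 95% binomial interval as the bar and the number of neutrophils beside each point. The right panel plots S100a8 plus S100a9 UMIs in each neutrophil thinned to 1000 UMIs, on a log scale, with the median as a line. Cre library 1 and Cre library 2 hold the highest and the lowest share, and 2 cells of Cre library 2 lie far above the rest of that library.

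Identity genes outside the rule marked the same cells. G0s2, an inhibitor of fat breakdown that neutrophils carry in large amounts, stood at 1019, 632, 681 and 949 CPM, 58.6-fold above the other cells. Mxd1, a MYC antagonist of cells that have left the cell cycle, stood at 1035, 593, 747 and 712, and the chemoattractant-binding receptor Ccrl2 at 915, 237, 637 and 475. Trem1, an activating receptor of myeloid cells, and Acod1, which makes itaconate, were 199.8-fold and 187-fold higher than in the other cells. G0s2, Mxd1 and Trem1 were higher in neutrophils in 4 of 4 libraries. Ly6g, the usual surface marker of mouse neutrophils, was detected in 9 of the 215 cells, at 29.2 and 237 CPM in the Cre libraries and 0 in both TKO libraries.

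Inflammatory mediators were abundant, at 11452, 3872, 8798 and 7355 CPM for the whole cytokine and chemokine list against 3219, 2172, 2093 and 3110 in the other kept cells. Il1b was detected in 102 of 107, 11 of 13, 58 of 66 and 26 of 29 neutrophils, and in 1.22%, 1.29%, 2.81% and 2.27% of fibroblast-marker cells of the same libraries, whose median depth was 2783.5, 1483, 1501 and 1362 UMIs. Monocyte-marker cells (defined below) held Il1b in 56.0%, 23.5%, 44.1% and 42.1%, at median depths of 3933, 2480, 2070 and 1693 UMIs. The level of Il1b was 3349, 1304, 2452 and 1918 CPM in neutrophils. It was 124 ± 16.9 in other kept cells, with a mean of 726 in monocyte-marker cells. Cxcl2, a chemokine that recruits further neutrophils through Cxcr2, stood at 3833, 1027, 3206 and 1898, against 814 ± 197 in other kept cells, and was detected in 86.9%, 46.2%, 71.2% and 58.6% of neutrophils against 6.43%, 8.45%, 11.8% and 9.94% of fibroblast-marker cells. Monocyte-marker cells held Cxcl2 in 33.8%, 15.7%, 34.8% and 19.6%. Among neutrophils, Cre library 2 was lowest for both genes. The prostaglandin-producing enzyme Ptgs2 stood at 837, 198, 498 and 593, and the chemokine Ccl6 at 1149, 672, 754 and 712. Of the 22 cytokine and chemokine genes listed, 9 were higher than in other cells in all 4 libraries. Only 6 of them were higher than in monocyte-marker cells in all 4. With every cell thinned to 1000 UMIs, Il1b was still found in 86.0%, 84.6%, 78.8% and 72.4% of neutrophils, and Cxcl2 in 77.6%, 46.2%, 63.6% and 51.7%.

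Receptors and signalling genes followed. Tyrobp, the adaptor of activating receptors, stood at 1353, 1067, 754 and 890 CPM, and the pattern receptor Clec4e, which senses dying cells and fungi, at 545, 316, 307.4 and 297. Of the 21 pattern recognition and Fc receptor genes in the tables, 13 were above other cells in 4 of 4 libraries, and 9 were above monocyte-marker cells. Cebpb, the C/EBP family member of emergency granulopoiesis, stood at 1704, 1146, 1288 and 1661, against 400 ± 87.6 in other cells. The survival gene Mcl1, on which neutrophils depend, stood at 1311, 474, 783 and 751. The marrow-retention receptor Cxcr4 stood at 474, 277, 366 and 415, against 217 ± 92.8. The glucose transporter Slc2a3 was 12.3-fold above other cells, whereas the other hypoxia and glycolysis genes were mixed, with 3 of 20 above other cells in every library. Of the 7 NADPH oxidase subunits and regulators, which make the oxidative burst, 4 were above other cells in every library. Ncf1 was among them, at 415, 119, 205 and 237. Only 2 of the 7 were above monocyte-marker cells in every library. The list sum was 1564, 2015, 1105 and 1404 CPM in neutrophils against 1692, 1335, 1601 and 1661 in monocyte-marker cells. Immediate early genes were high as well, with Fos at 3391, 1738, 3228 and 2570 and Dusp1 at 2281, 1264, 2306 and 2017, and 10 of the 23 early response and dissociation stress genes were above other cells in all 4 libraries.

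**Figure D2:**
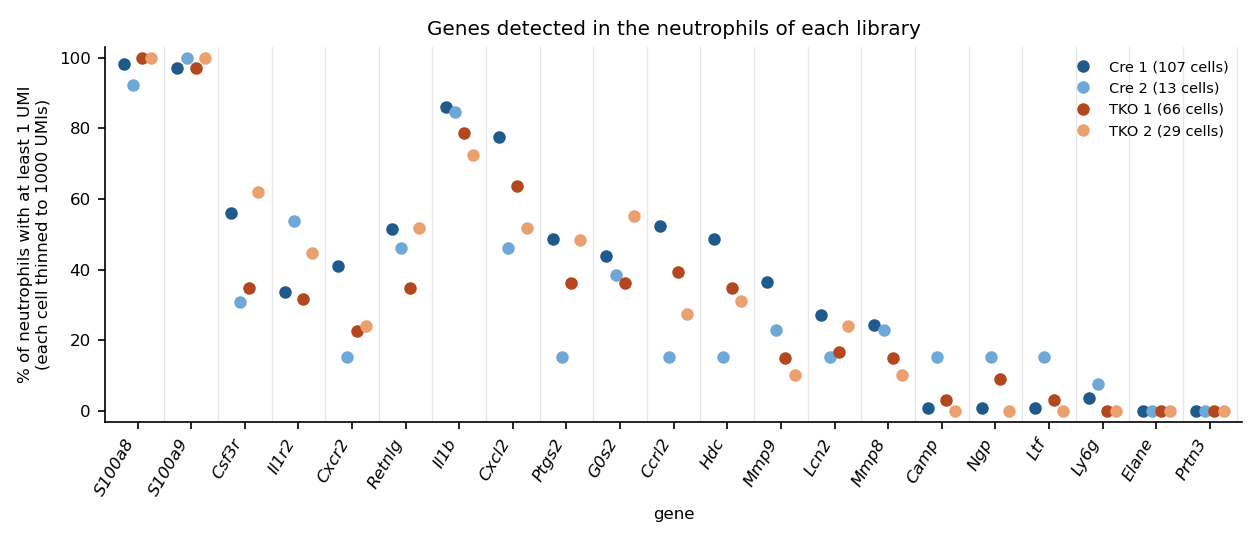
Each point gives the percentage of neutrophils in a library with at least 1 UMI of a gene after every cell was thinned to 1000 UMIs; the horizontal axis lists genes and colours mark the 4 libraries. Il1b lies between 72.4% and 86.0%, and Elane and Prtn3 lie at 0 in every library.

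Granule genes split by the stage at which they are known to be made. Most primary granule genes of early precursors were not detected: Elane, Prtn3, Ctsg and Ms4a3 had 0 UMIs in the 215 cells, and Mpo had 3.25 CPM in Cre library 1 and 0 in the others. Of the other members, the protease-activating enzyme Ctsc, which many cell types make, stood at 315, 119, 205 and 178 CPM, below the other kept cells of every library, and the protease inhibitor Serpinb1a at 6.49, 0, 36.6 and 0. The late granule protease Mmp9 stood at 555, 237, 183 and 119, and the collagenase Mmp8 at 256, 356, 263 and 59.3. Lcn2, which withholds iron from bacteria, stood at 376, 2133, 300.1 and 257. The specific granule genes Camp (cathelicidin), Ngp and Ltf (lactoferrin) differed far more between libraries. Camp stood at 26.0, 3556, 161 and 0 CPM, Ngp at 48.7, 5808, 307.4 and 0, and Ltf at 9.74, 2489, 139 and 0, so Cre library 2 was far above the other 3.

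Those specific granule transcripts sat in very few cells. Of the 215 neutrophils, 202 held no UMI of Camp, Ngp or Ltf, 4 held 1 and 1 held 2, none held 3 or 4, and 8 held at least 5. The 8 cells were 1 in Cre library 1, 2 in Cre library 2 and 5 in TKO library 1, and the 2 in Cre library 2 held 170 and 130 such UMIs. In the 8 cells together Lcn2 and Mmp8 were detected in all 8, Chil3 and Cd177 in 5 and Ly6g in 3, while Il1b was found in 3 (302 CPM), Cxcl2 in 3 and Ccrl2 in none. In the other 207 cells Il1b was found in 194 (2995 CPM), Cxcl2 in 160 and Ccrl2 in 124, while Lcn2 was found in 61, Mmp8 in 52 and Ly6g in 6. Retnlg was detected in 7 of the 8 and in 120 of the 207. Proliferation was not general among the 8: Mki67 was found in 1 of them, a cell of TKO library 1 with 7949 UMIs, 14 of them Mki67. The grouping was made after the values were seen, it used the genes that it separates, and no test was applied.

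**Figure D3:**
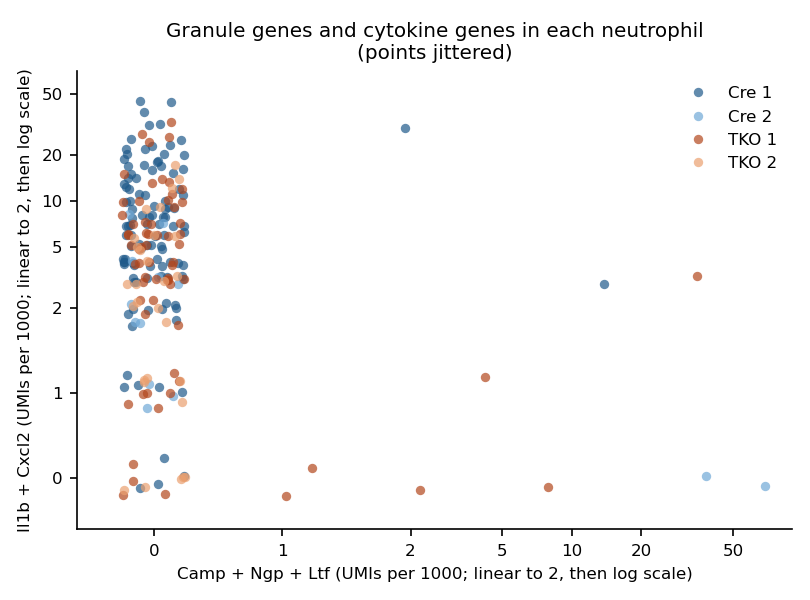
Each point is 1 neutrophil thinned to 1000 UMIs, with Camp, Ngp and Ltf UMIs on the horizontal axis and Il1b plus Cxcl2 UMIs on the vertical axis, both linear up to 2 and logarithmic above, jittered, with colours for the 4 libraries. Most of the 215 cells lie at 0 on the horizontal axis and spread upward, and the few cells far to the right lie low on the vertical axis.

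The KLF10, IL-9 and TGF-beta list summed to 1162, 1146, 1098 and 1107 CPM in neutrophils and to 1183, 1077, 1221 and 1160 in the other kept cells. Klf10 had 34, 0, 4 and 1 UMIs, equal to 110, 0, 29.3 and 19.8 CPM, against 61.0 ± 12.1 in other kept cells. It was detected in 21 of 107, 0 of 13, 4 of 66 and 1 of 29 neutrophils, and in 12.9%, 6.67%, 9.10% and 7.63% of fibroblast-marker cells. After thinning to 1000 UMIs it was found in 9, 0, 2 and 0 neutrophils. Cre library 1 was the highest, and the other Cre library, with its limit of 119 CPM, overlapped both TKO libraries. Il9, its receptor gene Il9r and the angiotensin receptor genes Agtr1a and Agtr1b had 0 UMIs in the neutrophils of all 4 libraries. The kinase gene Jak1, which serves the IL-9 receptor among many others, stood at 263, 356, 322 and 257, and the TGF-beta receptor gene Tgfbr2 at 188, 237, 205 and 158, close to the other cells at 255 ± 9.27 and 221 ± 30.6. Of the 19 genes of this list, 2 were above other cells in every library (Jak1 and Stat6).

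The share of neutrophils did not separate the genotypes. Neutrophils made up 0.738% of kept cells in Cre library 1 (exact 95% binomial interval 0.606 to 0.892%), 0.199% in Cre library 2 (0.106 to 0.340%), 0.430% in TKO library 1 (0.332 to 0.546%) and 0.391% in TKO library 2 (0.262 to 0.560%). Both TKO libraries lay between the Cre libraries. Without the cells that held at least 3 UMIs of another lineage, which were 64 of the 66 in TKO library 1, 45, 2, 2 and 11 neutrophils remained, or 0.311%, 0.0306%, 0.0130% and 0.148% of kept cells, and TKO library 1 was then the lowest. The means were 0.469% ± 0.381 (SD, n = 2) for Cre and 0.410% ± 0.0276 (SD, n = 2) for TKO, a difference of -0.0587 percentage points (two-sided exact permutation test over libraries, p = 1). With 2 libraries a group this test cannot fall below 0.333, so it cannot reach the threshold. Without Cre library 1 the difference was 0.211 points and without Cre library 2 it was -0.328 points, so its sign rested on a single library. Among cells with a Ptprc UMI the shares were 1.504%, 0.192%, 0.655% and 0.699%, in the same order except that the TKO libraries changed places. A further 240 barcodes with the same marker UMIs lay outside the cell filters (94, 34, 66 and 46) and was not counted.

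Gene expression in neutrophils was compared between genotypes on UMI counts summed per library. Of 1573 genes tested with edgeR's quasi-likelihood test, 0 passed an adjusted p of 0.05 (0% called), 65 had an unadjusted p under 0.05, and the smallest adjusted p was 0.210. DESeq2 called 2 of the same genes (0.127%), Ctrb1 and Col1a1. The number called by edgeR rested on single libraries: it was 29 without Cre library 1, 34 without Cre library 2, 5 without TKO library 1 and 11 without TKO library 2. The median log2 fold change of all genes tested was -0.01. A gene had to reach a minimum count to enter the test, so 20 of the 30 identity genes and 13 of the 17 specific and gelatinase granule genes could be assessed.

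The defining pair was lower in both TKO libraries without passing the test. The log2 fold change, TKO over Cre, was -1.28 ± 0.47 (SE) for S100a8 and -1.01 ± 0.44 for S100a9, both with an edgeR adjusted p of 0.998. The values of S100a8 and S100a9 above did not overlap between groups. Without the 8 cells with at least 5 UMIs of Camp, Ngp and Ltf the differences were -0.36 for S100a8 and -0.32 for S100a9, and with at most 10% mitochondrial UMIs they were -0.05 for both. Without cells holding UMIs of another lineage they were larger, -3.06 for S100a8 and -2.38 for S100a9 (edgeR adjusted p = 0.374 for both), on the few cells left. Without Cre library 2 they were -0.78 and -0.72. Without Cre library 1, which leaves Cre library 2 alone in its group, S100a8 stood at -1.69 and S100a9 at -1.29 with edgeR adjusted p of 0.00064 and 0.0208. The rule itself used these genes, so they carry no independent weight. The other rule genes differed by less, with Cxcr2 at -0.53 ± 0.44, Retnlg at -0.32 ± 0.44, Csf3r at -0.26 ± 0.47 and Il1r2 at -0.04 ± 0.45.

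In the gene lists no member passed the test with all 4 libraries and the low-count filter. With no such filter 22 of 13804 genes passed edgeR's test. Ngp, Camp and Ltf were among them, all lower in TKO (edgeR adjusted p = 7.6e-07, 3.0e-06 and 0.00019), as were Col1a1 and Col1a2, both higher. For Ngp, Camp and Ltf the groups overlapped, and only Cre library 2 lay above both TKO libraries. All 13 tested specific and gelatinase granule genes were lower in TKO, with a median log2 fold change of -1.03 beside -0.01 for all genes. Without Cre library 2, 10 of 13 were lower and the median was -0.48, and without the 8 cells with at least 5 UMIs of Camp, Ngp and Ltf, 10 of 10 were lower and the median was -0.57. Without Cre library 1 the median was -1.96, and without TKO library 1 it was -2.36, so each of these fits left a single library in a group. In the first, Cre library 2 stood alone for Cre, and 2 of its cells held 170 and 130 UMIs of Camp, Ngp and Ltf. Of the identity genes 18 of 20 were lower (median -0.55), but without Cre library 1 only 7 of 17 were and the median was 0.25, and without Cre library 2 the median was -0.73. Of the cytokine and chemokine genes 7 of 11 were lower (median -0.15), and without Cre library 1 none of 8 were (median 1.33), and without Cre library 2 the median was -0.62. Il1b stood at -0.15 ± 0.52 and Cxcl2 at 0.01 ± 0.61, both with overlapping groups. The early response genes were lower for 15 of 23 (median -0.05), the NADPH oxidase genes for 5 of 6 (median -0.54), and the interferon response genes for 2 of 5 (median 0.07). Markers of other cell types moved too: macrophage markers were lower for 7 of 7 (median -0.65) and monocyte markers for 3 of 3 (median -0.26). Fibroblast markers were higher for 5 of 7 (median 1.38) and erythrocyte markers for 5 of 5 (median 0.48). Their part in the neutrophil lists was not tested.

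Genes with the smallest p values, named by a fixed rule in place of called genes, did not pass either. The 5 on the higher side were genes of fibroblasts: the collagen gene Col1a1 at 545 and 119 CPM in Cre and 1815 and 2748 in TKO neutrophils (2.53 ± 0.62), the small proteoglycan Lum (2.03 ± 0.48), the matrix protease Mmp3 (2.28 ± 0.49), and the secreted Wnt antagonists Sfrp2 (2.32 ± 0.50) and Sfrp4 (2.29 ± 0.57), each with an edgeR adjusted p of 0.558. In the other kept cells the same 5 genes differed by 1.58, 1.33, 0.91, 1.15 and 0.90 in the same direction, and none was called there. Their part in the neutrophil values, through RNA from fibroblasts in the same droplets, was not tested. On the lower side Wfdc17, a secreted WAP-domain protein of myeloid cells, stood at 707 and 356 in Cre and 154 and 178 in TKO (-1.84 ± 0.47, adjusted p = 0.558). Mmp9 (-1.52 ± 0.49), the G protein regulator Rgs1 (-1.60 ± 0.49) and the WAP-domain gene Wfdc21 (-2.17 ± 0.67) had edgeR adjusted p of 0.998. These calls depended on single libraries. Without Cre library 2, the edgeR adjusted p was 0.0016 for Wfdc17, 0.0037 for Sfrp2, 0.0043 for Mmp3, 0.0164 for Mmp9, 0.0203 for Sfrp4, 0.0249 for Col1a1 and 0.0309 for Lum. Without Cre library 1, Col1a1 stood at 4.16 and Lum at 3.104 and both passed (edgeR adjusted p = 2.0e-05 and 0.0208), Wfdc21 stood at -2.99 and passed (edgeR adjusted p = 7.4e-06), and Mmp9 stood at -0.63. The naming rule took only genes without overlap between groups, so their lack of overlap was fixed beforehand and carries no weight. Wfdc21 stood at -1.06 without Cre library 2. It stood at -0.81 without the 8 cells with at least 5 UMIs of Camp, Ngp and Ltf.

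Ctrb1, the gene of a pancreatic digestive enzyme, had 167 of 333457 neutrophil UMIs in the Cre libraries and 0 of 187205 in the TKO libraries. With a floor of 3 UMIs over the TKO group it was at least 31.3-fold lower there (edgeR adjusted p = 0.210). In the other kept cells of the same libraries Ctrb1 was lower in TKO too (edgeR adjusted p = 0.0423), so the same gene was called outside neutrophils. With no low-count filter 8 other genes of the pancreas, Pnlip, Prss2, Try4, Try5, Cela1, Cela3b, Cpb1 and Clps, were also called lower in TKO neutrophils (edgeR adjusted p from 3.1e-05 to 0.0117). Whether any of these transcripts came from the neutrophils was not tested.

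**Figure D4:**
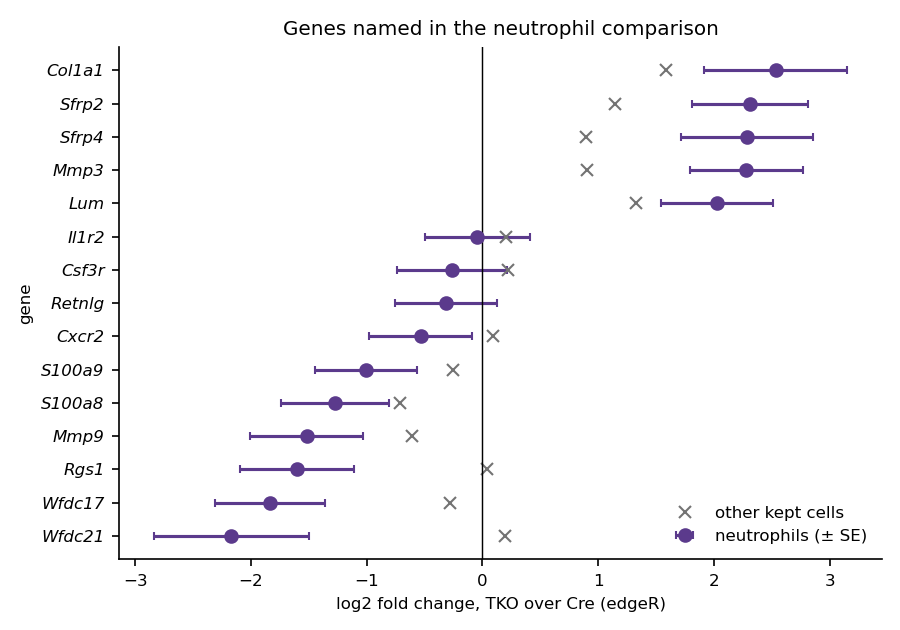
Points give the log2 fold change, TKO over Cre, of named genes in neutrophils with their standard error, and crosses give the same contrast in the other kept cells; Ctrb1 is left out because a group is at 0, and Retnlg has no cross because it was too low in the other cells. No point passed the test, and the fibroblast genes lie to the right in both kinds of cell.

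No genotype effect was shown to be particular to neutrophils. The contrast was compared between neutrophils and the other kept cells of the same libraries for 13835 genes. EdgeR called 0 (0%), with 277 at an unadjusted p under 0.05. For S100a8 the 2 effects differed by -0.42 and for S100a9 by -0.67 on the log2 scale. The rule had taken cells rich in S100a8 and S100a9 out of the comparison cells, so these differences carry no weight. Against 1057 monocyte-marker cells, 0 of 5460 genes were called (0%) and 274 had an unadjusted p under 0.05. Against them the effects on S100a8 and S100a9 differed by 1.53 and 1.03, the opposite sign (edgeR adjusted p = 0.932 for S100a8), and neither was called. Monocyte-marker cells held a mean of only 4.86 CPM of S100a8 and 3.38 of S100a9, so these differences carry no weight either. That class was not pure: its dendritic cell markers summed to 13218 to 14805 CPM and its monocyte markers to 3292 to 4396, it also carried transcripts of B and plasma cells, and 558 cells remained when those with B or T cell UMIs were left out, again with 0 genes called.

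Bulk RNA held only a trace of the rule genes, which summed to 2.48 to 5.02 CPM in non-stripped Cre aorta. The identity list summed to 445 to 573 CPM there, with G0s2 at a mean of 246 and Msrb1 at 87.6. In bulk RNA fewer neutrophils, less RNA per neutrophil and RNA of the same genes from other cells cannot be told apart. The tables of the 4 bulk experiments held 17179257 to 38633457 counts per library. In TKO aorta given the anti-IL-9 antibody, 12 of the 20 testable neutrophil genes passed edgeR's test against IgG, all of them lower. That antibody comparison called 32.1% of all 16463 genes, and 11% of them as lower; DESeq2 called 14 of the 20 neutrophil genes and 34.8% of all. The median log2 fold change of the 20 was -1.41, beside -0.01 for all genes. In CPM, S100a8 stood at 2.86, 0.880 and 2.00 with IgG and at 0.280 and 0.382 with the antibody (-2.52 ± 0.62, adjusted p = 0.0208). S100a9 stood at 3.39, 1.02 and 2.13 against 0.400 and 0.437 (-2.36 ± 0.60, adjusted p = 0.0234). For both genes the groups did not overlap, and IgG library 2 was the lowest of its group.

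The other neutrophil genes that fell with the antibody covered receptors, proteases and secreted proteins. Csf3r stood at 3.07, 5.60 and 3.19 with IgG against 1.64 and 1.26 (-1.44 ± 0.38, edgeR adjusted p = 0.0273). Wfdc21 stood at 8.003, 16.5 and 8.83 against 1.20 and 1.42 (-3.09 ± 0.41, edgeR adjusted p = 0.0015). Mmp9 stood at 5.14, 3.47 and 6.07 against 1.24 and 0.437 (-2.49 ± 0.49, edgeR adjusted p = 0.00877). The antibody libraries lay below every IgG library for all 3. The antiprotease Slpi (-1.96 ± 0.35), the lectin receptor Clec4d (-2.49 ± 0.43), the integrin Itgam (-1.68 ± 0.43), the histone-modifying enzyme Padi4 (-1.66 ± 0.39), Lrg1 (-1.98 ± 0.54), Ifitm2 (-0.88 ± 0.16) and Ccrl2 (-0.98 ± 0.31) fell too. When each of the 5 libraries was left out in turn, 5 of the 12 (Slpi, Mmp9, Clec4d, Ifitm2 and Wfdc21) passed every time, and S100a8 and S100a9 passed in 2 of the 5 fits, with adjusted p up to 0.119 and 0.117. Csf3r also passed in 2 fits, and Ccrl2 in none. Retnlg, with 26, 1 and 6 counts under IgG and 0 and 3 under the antibody, Cxcr2 and Il1r2 were too low to test, and Ly6g had 1 count in all 5 libraries.

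Among the lists of neutrophil functions, most of whose genes other myeloid cells share, results were mixed. They are read beside all 16463 genes tested, of which 11% were called lower and 3462 were called higher. Pattern recognition and Fc receptor genes were called lower for 13 of 21 (median -1.22), specific and gelatinase granule genes for 6 of 11 (median -1.17), and chemoattractant receptor and adhesion genes for 7 of 16, with 1 called higher (median -1.09). The cytokine and chemokine genes were called lower for 2 of 11 (median -0.53) and the NADPH oxidase genes for 1 of 7 (median -0.78). The early response genes were higher for 15 of 23, with 5 called higher and 1 lower (median 0.47). The interferon response genes had 3 called in each direction of 28 (median -0.01), and the hypoxia and glycolysis genes 3 called higher and 2 lower of 21 (median -0.29).

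Markers of other cell types moved in the same comparison, in which 3462 of all 16463 genes were called higher and 1815 lower. The monocyte markers were lower for 5 of 7 and called lower for 4 (median -1.13). They summed to 472 to 1384 CPM with IgG and 290 to 456 with the antibody. Mast cell and basophil markers were called lower for 4 of 5 and adipocyte markers for 3 of 4, while Schwann cell markers were called higher for 4 of 4. The macrophage markers were all 8 lower and called lower for 7 (sum 2401 to 2803 CPM with IgG, 1465 to 1518 with the antibody), and the fibroblast markers likewise for 7 of 8 (5273 to 12017 against 2051 to 2747). The mesothelial markers were called lower for 4 of 4 (114 to 268 against 2.79 to 5.92), and the endothelial ones for 5 of 6. The smooth muscle markers were called higher for 4 of 4 (377 to 655 against 1230 to 1260). Several of the neutrophil genes, such as Itgam, Clec4d and Slpi, are also made by macrophages or other cells. The part of tissue make-up in the neutrophil genes was not tested.

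In the bulk comparisons of genotype none of these neutrophil genes passed. In non-stripped aorta edgeR called 0 of 18 and DESeq2 called 2, where the tools called 0.119% and 5.24% of all genes. Of the 18, 5 had an unadjusted edgeR p under 0.05, beside 2714 of all 15162 genes tested. The median log2 fold change of the 18 was -0.12, beside -0.02 for all genes. S100a8 stood at 0.465, 0.691 and 0.938 CPM in Cre and 0.0502, 0.711 and 0.639 in TKO, with overlap (-0.58 ± 0.65, edgeR adjusted p = 0.655). Slpi had the smallest p, at 3.603, 2.60 and 2.02 in Cre against 8.93, 3.45 and 15.3 in TKO (1.73 ± 0.49, edgeR adjusted p = 0.120).

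In stripped aorta edgeR called 0 of 23 neutrophil genes and DESeq2 called 3, where the tools called 0.024% and 3.54% of all genes. Of the 23, 7 had an unadjusted edgeR p under 0.05, beside 2295 of all 16688 genes tested. The median of the 23 was 0.73, beside 0.00 for all genes, and 20 were higher in TKO. The size of that lean rested on TKO library 2, without which the median was 0.13. S100a8 stood at 0.248, 0.898, 0.770 and 0.836 CPM in Cre and at 0.148 and 4.35 in TKO, so TKO library 2 alone was high. Other genes were above every Cre library in both TKO libraries without passing the test: Clec4d stood at 1.70, 1.83, 3.18 and 1.35 in Cre against 4.08 and 6.92 (edgeR adjusted p = 0.216), and Lrg1 at 19.8, 29.6, 20.9 and 34.3 against 47.9 and 44.0 (edgeR adjusted p = 0.222). The same held for Il1r2, Slpi, Pglyrp1, Ccrl2 and Itgam, while Msrb1 was below every Cre library in both. Groups thus did not overlap for 8 of the 23 genes. The share of all genes without overlap was not counted, so no excess can be read from the 8. In the same TKO libraries B and plasma cell markers summed to 134 to 481 CPM against 41.8 to 68.9 in Cre, and their part was not tested.

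In isolated fibroblasts edgeR called 0 of 24 neutrophil genes and DESeq2 called 3, where the tools called 0.0638% and 2.68% of all genes. Of the 24, 6 had an unadjusted edgeR p under 0.05, beside 1898 of all 15673 genes tested. The median was -0.50, beside 0.01 for all genes. In the same libraries the macrophage markers were lower for 8 of 8 tested genes (median -0.996, sums 387 to 1067 CPM in Cre and 239 to 389 in TKO, none called), and their part was not tested. Mmp9 stood at 21.7, 31.9 and 31.6 in Cre and 12.7, 13.6 and 5.49 in TKO (-1.42 ± 0.32, edgeR adjusted p = 0.223), and S100a8 at 0.800, 2.49 and 1.01 against 0.996, 0.585 and 1.08. The groups did not overlap for Mmp9 and overlapped for S100a8.

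**Figure D5:**
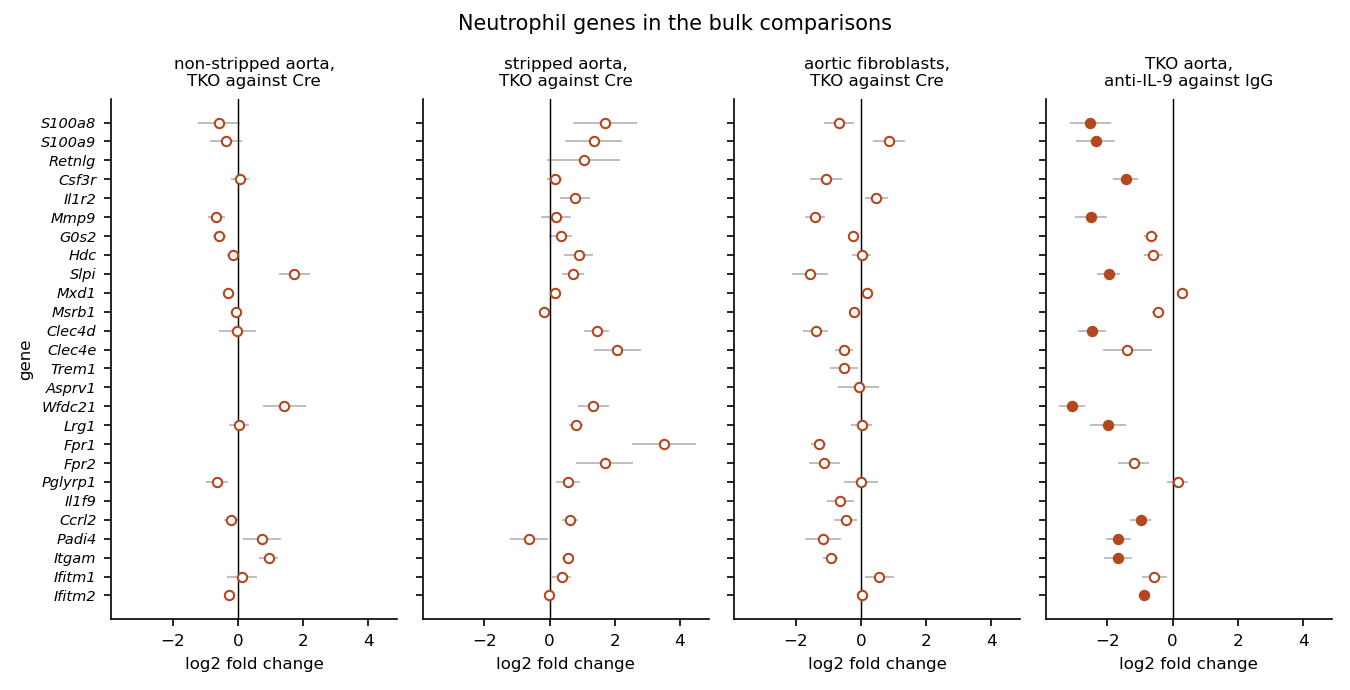
Each panel is a bulk comparison, with neutrophil genes down the side and the log2 fold change with its standard error on the horizontal axis; filled points passed an adjusted p of 0.05 and open points did not. The 12 filled points are all in the anti-IL-9 panel and all to the left of 0.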

How the data were processed

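Single-cell values are raw UMI counts in the matrices the authors deposited, made by Cell Ranger 6.0.0 per the file headers. Bulk values are raw read counts by gene symbol as deposited; the submitters' processing notes name featureCounts and Subread 1.5.2, STAR 2.5.2b, Trimmomatic 0.36 and the build GRCm38, with no strand setting. Groups follow the label fields for tissue, genotype and treatment; the stripped samples' titles say nonstripped. A bulk row with no gene name (at most 0.0025% of counts) and 1 column without a label were left out.

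Neutrophil CPM used summed UMIs, and bulk CPM used TMM-scaled library sizes. For each comparison genes passing filterByExpr (minimum count 10) were scaled by TMM and tested by edgeR 4.0.16 quasi-likelihood under R 4.3.3, with Benjamini-Hochberg adjustment over all genes at 0.05; the procedure was tested on simulated data. Alternatives were DESeq2 1.42.0, other scaling, no filter, other cell thresholds, a replicate block and leaving out each library. Fibroblast-marker cells had at least 5 UMIs of fibroblast genes. Monocyte-marker cells had at least 3 of 6 monocyte genes and under 3 C1q UMIs. Intervals (Clopper-Pearson) and the 3-count limit cover counting error only.

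Named genes were up to 10 called per direction (or the 5 with the smallest p, at 20 CPM or more and without overlap), the rule genes, Klf10, Il9, Il9r, the 4 highest members of each list and, in bulk, the 6 identity genes with the smallest p. Ly6g, Ltf, Mmp8, Chil3, Cd177, Trem1, Acod1, Stat6 and other genes outside that rule were named after their values were seen. The members and lists were chosen with earlier results of these data known.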

Additional observations from a re-analysis of the deposited data

Results flagged for a closer look

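In stripped aorta the highest Cre value of S100a9, 1.16 CPM, stood apart from the other 3 Cre libraries by more than the 95% critical value for a single distant sample. Chance gives such a value in about 1 in 20 groups, and 11 groups were examined.

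Clec4d and Itgam differed in opposite directions in different samples of the same genotype contrast, with every TKO library on one side of every Cre library. For Clec4d the log2 fold change was 1.45 in stripped aorta and -1.39 in isolated fibroblasts. For Itgam it was 0.94 in non-stripped aorta, 0.55 in stripped aorta and -0.93 in isolated fibroblasts. None of these values passed edgeR's test, and the difference between the tissues was not tested because each has its own table.

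Outside the cell filters, 240 barcodes carried the neutrophil marker UMIs, of which 166 had too few UMIs, 170 too few genes and 129 too many mitochondrial UMIs, with overlap between these reasons. They were left out of every comparison.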

How the results depend on the processing

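The neutrophil share kept its direction under 14 of 15 alternatives, among them the replicate block, which could not change it. It turned to 0.211 points without Cre library 1. Leaving out each library gave -0.328 to 0.211 points. Genes called in neutrophils numbered 0 under the main settings, 22 with no low-count filter, 2 with DESeq2, and 1 each with at least 200 genes and 500 UMIs, with at least 2 receptor markers and without cells over 5% haemoglobin. Leaving out each library gave 5 to 34 calls, where a group left with 1 library is assumed to vary like the other. The comparison with other cells gave 1 call with relative log expression scaling, and that with monocyte-marker cells 6, and 2 with no filter. Bulk neutrophil genes called numbered 1 of 30 (no filter), 2 of 18 (DESeq2) and 0 to 2 (each library left out) in non-stripped aorta. They numbered 3 of 23 (DESeq2) in stripped aorta, and 5 of 32 (no filter) and 3 of 24 (DESeq2) in fibroblasts. Of all genes, no filter gave 766 of 25363 in non-stripped aorta and 682 of 30122 in fibroblasts. DESeq2 called 5.24% in non-stripped aorta, 3.54% in stripped aorta and 2.68% in fibroblasts. Leaving out each non-stripped library called 0 to 486 genes. With the antibody, leaving out each IgG library gave 9 to 11 calls, where 3725 to 4405 of all genes were called. Without antibody library 1 or 2 a single antibody library remained and fewer neutrophil genes passed. Their median log2 fold change was then -1.84 or -1.22.

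Of 246 values of single genes, 215 kept their sign and again did not pass the test, 21 passed it and 10 changed sign. This count ignores size, which could move far. S100a8 (-1.28) became -0.05 with at most 10% mitochondrial UMIs and -3.06 without cells holding UMIs of another lineage. Il1r2 (-0.04) became 0.28 without Cre library 2, 0.36 with at least 200 genes and 500 UMIs, 0.15 with at most 10% mitochondrial UMIs, 0.0024 with at least 5 S100a8 and S100a9 UMIs, 0.012 with at least 2 receptor markers, 0.14 without cells with at least 5 UMIs of Camp, Ngp and Ltf and 0.084 without haemoglobin-rich cells. Without Cre library 1 Cxcr2 became 0.29 and Csf3r 0.19, and Retnlg became 0.036 with at least 200 genes and 500 UMIs. Leaving out each library gave -0.54 to 0.28 for Il1r2, -0.82 to 0.29 for Cxcr2 and -0.56 to 0.19 for Csf3r. The cause was not tested.

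Replicate numbers appear in the titles of the single-cell libraries. Deviations of same-numbered neutrophil libraries correlated at 0.0986, and with 2 pairs the numbers were not taken to pair animals. With the replicate number as a block 0 genes were called. For the share, such a block of 2 balanced pairs must return the same mean difference, -0.0587 points. The pairs themselves differed in sign, at -0.309 points for the libraries numbered 1 and 0.192 points for those numbered 2. Leaving out those granule cells, leaving out haemoglobin-rich cells and the purer monocyte class were chosen after seeing the data. Depth limits Cre library 2 most, where 3 UMIs equal 119 CPM.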
